A study of Mus musculus with 35 samples.

Results

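Transglutaminases are enzymes that cross-link proteins by joining a glutamine to a lysine, and 3 of them, Tgm1, Tgm2 and F13a1, were examined here in injured mouse brain. They are 3 of the 21203 protein-coding genes in the deposited table, and they were chosen by name after Tgm1 was seen among the genes with the largest rise over Sham. The level of Tgm1 against Sham and its change from 1 to 3 weeks are for that reason given as a description, with no test. Transglutaminase 1, the product of Tgm1, is known for building the cornified envelope of keratinocytes in the skin. Tissue transglutaminase, the product of Tgm2, is found in many cell types, binds GTP as well as cross-linking proteins of the matrix, and is widely used as a marker of macrophages exposed to IL-4. F13a1 encodes the A subunit of coagulation factor XIII, which cross-links fibrin clots and is made by megakaryocytes, monocytes and some tissue macrophages.

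RNA was taken from brains of young adult male C57BL/6NCrl mice, with 1 library per mouse and 34 libraries in all. Sham mice went through surgery without the impact and received no treatment. The other mice had a closed head injury, an impact on the intact skull from an electromagnetic device, and on day 5 an injection into the left hippocampus of PBS, of MSCs (bone marrow-derived mesenchymal stromal cells) or of IL-4 MSCs, the same cells given a synthetic mRNA for IL-4 beforehand. Tissue was collected 2 days after treatment (1 week post injury, 1 wpi) or 16 days after treatment (3 wpi). There were 5 mice in each group except PBS at 3 wpi, with 4, because the authors left out 1 mouse. The 5 Sham mice, 2 of them collected at 1 week and 3 at 3 weeks, formed 1 group. Injury, surgery at the injection site and injection were all absent from Sham and cannot be told apart in comparisons with it. The labels call the tissue left cortex, while the protocol describes a strip of the left hemisphere around the injection site. Summed over 10 genes that mark striatal neurons, the level ranged from 137 to 658 CPM in the libraries of the other 6 groups and from 265 to 1891 CPM in IL-4 MSCs at 3 wpi, and these markers were not at one level across the strips. Libraries held between 29838423 and 41554322 estimated counts. Levels below are in CPM, the estimated count of a gene scaled to a common library total, and 3 counts, taken as the limit of detection, correspond to between 0.0722 and 0.101 CPM.

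The members are related in sequence around the active site, where a cysteine attacks the glutamine of the substrate. The 63 coding bases around that cysteine, with its codon in capitals, show which part of the enzymes is shared, and are read 5′ to 3′ on the coding strand of GRCm38.
Tgm1: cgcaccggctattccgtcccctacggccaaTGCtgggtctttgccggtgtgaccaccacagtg
Tgm2: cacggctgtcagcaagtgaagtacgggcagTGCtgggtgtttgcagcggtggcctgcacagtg
F13a1: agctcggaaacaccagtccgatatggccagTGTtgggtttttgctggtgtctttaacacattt
In Tgm1 (ENSMUSG00000022218, chr14:55700009-55713926, minus strand) the codon lies at chr14:55709422-55709424 in exon 7 and encodes residue 376 of 815. In Tgm2 (ENSMUSG00000037820, chr2:158116402-158146436, minus strand) it lies at chr2:158131359-158131361 in exon 6 and encodes residue 277 of 686. In F13a1 (ENSMUSG00000039109, chr13:36867178-37050244, minus strand) it lies at chr13:36946471-36946473 in exon 7 and encodes residue 315 of 732. Of the 63 bases, 40 were identical between Tgm1 and Tgm2, 39 between Tgm1 and F13a1 and 32 between Tgm2 and F13a1. The stretches thus differ at many positions even here, and the estimated counts of Tgm1 and F13a1 were within 0.01 of a whole number in 34 of 34 libraries, whereas those of Tgm2 were up to 0.450 from one. Fractions arise where kallisto divides a read between transcripts of different genes. Each gene overlaps at least 1 gene annotated on the opposite strand, Gm49067 for Tgm1, Rprd1b and Gm20412 for Tgm2, and Gm49144 and Gm30489 for F13a1. Whether strand was used in the counting is not given in the sources used here, so reads from such a partner cannot be told apart from those of the gene.

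Since Tgm1 was the member with the largest difference from Sham, the 250 bases upstream of one of its annotated transcription starts are shown (chr14:55713493-55713742, minus strand, RefSeq GRCm38.p6). The capitals mark both places where TTC and GAA stand 3 bases apart, a pattern recognised by STAT factors and identical on both strands.
Tgm1 upstream: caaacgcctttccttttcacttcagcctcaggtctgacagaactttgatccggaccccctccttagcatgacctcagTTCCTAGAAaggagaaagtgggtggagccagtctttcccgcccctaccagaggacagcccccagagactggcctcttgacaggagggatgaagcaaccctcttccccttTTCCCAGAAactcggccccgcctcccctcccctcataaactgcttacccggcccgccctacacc
The matches begin 173 and 64 bases before the start. The pattern was absent from the second Tgm1 window and from both F13a1 windows, and 7.02% of 32851 such windows of all genes held it. The same pattern with 4 bases between its parts, the form bound by the IL-4-responsive factor STAT6, and the AP-1 pattern TGA and TCA set 1 base apart were absent from all 4 windows of Tgm1 and F13a1 and present in 5.85% and 6.75% of windows of all genes. No window was available for Tgm2, so the patterns were not looked for there. A match describes these letters and is not evidence of binding.

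Tgm1 was close to absent in Sham tissue and was measured at a high level in each injured group at 1 wpi. In Sham it stood at 0.260, 0.246, 0.139, 0.168 and 0.244 CPM, which are between 5 and 8 counts per library. At 1 wpi it stood at 8.42, 31.7, 21.7, 22.6 and 18.0 CPM with PBS. With MSCs it stood at 14.6, 9.46, 29.0, 13.8 and 7.42 CPM. No library of these groups came near the Sham range, and the lowest held 237 counts. With IL-4 MSCs it stood at 32.7, 26.3, 35.3, 26.2 and 35.9 CPM, the narrowest spread of the treated groups at 1 wpi. The fitted log2 fold change over Sham was 6.56 (SE 0.46) for PBS, 6.09 (SE 0.47) for MSCs and 7.14 (SE 0.46) for IL-4 MSCs. Of all 17131 genes tested, 8.73%, 11.0% and 18.4% were called higher in these comparisons at an adjusted p-value under 0.05 (edgeR's quasi-likelihood test, Benjamini-Hochberg adjustment), and nothing is read from this for Tgm1, which was chosen on this difference.

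By 3 wpi most of the Tgm1 signal had gone, but all 14 libraries remained above the Sham range. The levels were 0.355, 0.354, 1.50 and 0.754 CPM with PBS. With MSCs they were 0.798, 0.702, 0.718, 0.817 and 1.26 CPM. With IL-4 MSCs they were 0.728, 1.73, 0.862, 0.483 and 1.31 CPM. The 3 treatments overlapped with each other, and the highest library at 3 wpi was below the lowest at 1 wpi. On the log2 scale the fitted difference from Sham was 1.85 (SE 0.68), 2.02 (SE 0.64) and 2.26 (SE 0.62) in this order of treatments, PBS first, MSCs second and IL-4 MSCs last, and the value for PBS was 1.18 when its replicate 3 was left out. Between weeks, the fitted log2 change was -4.71 (SE 0.42) with PBS, -4.07 (SE 0.38) with MSCs and -4.88 (SE 0.37) with IL-4 MSCs. Ordered by median, Sham was lowest, then came PBS, then MSCs and then IL-4 MSCs at 3 wpi, and at 1 wpi MSCs were followed by PBS and IL-4 MSCs. Ranges of neighbours were apart at only 2 steps of this order, from Sham to the 3 wpi groups and from these to the 1 wpi groups.

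**Figure D1:**
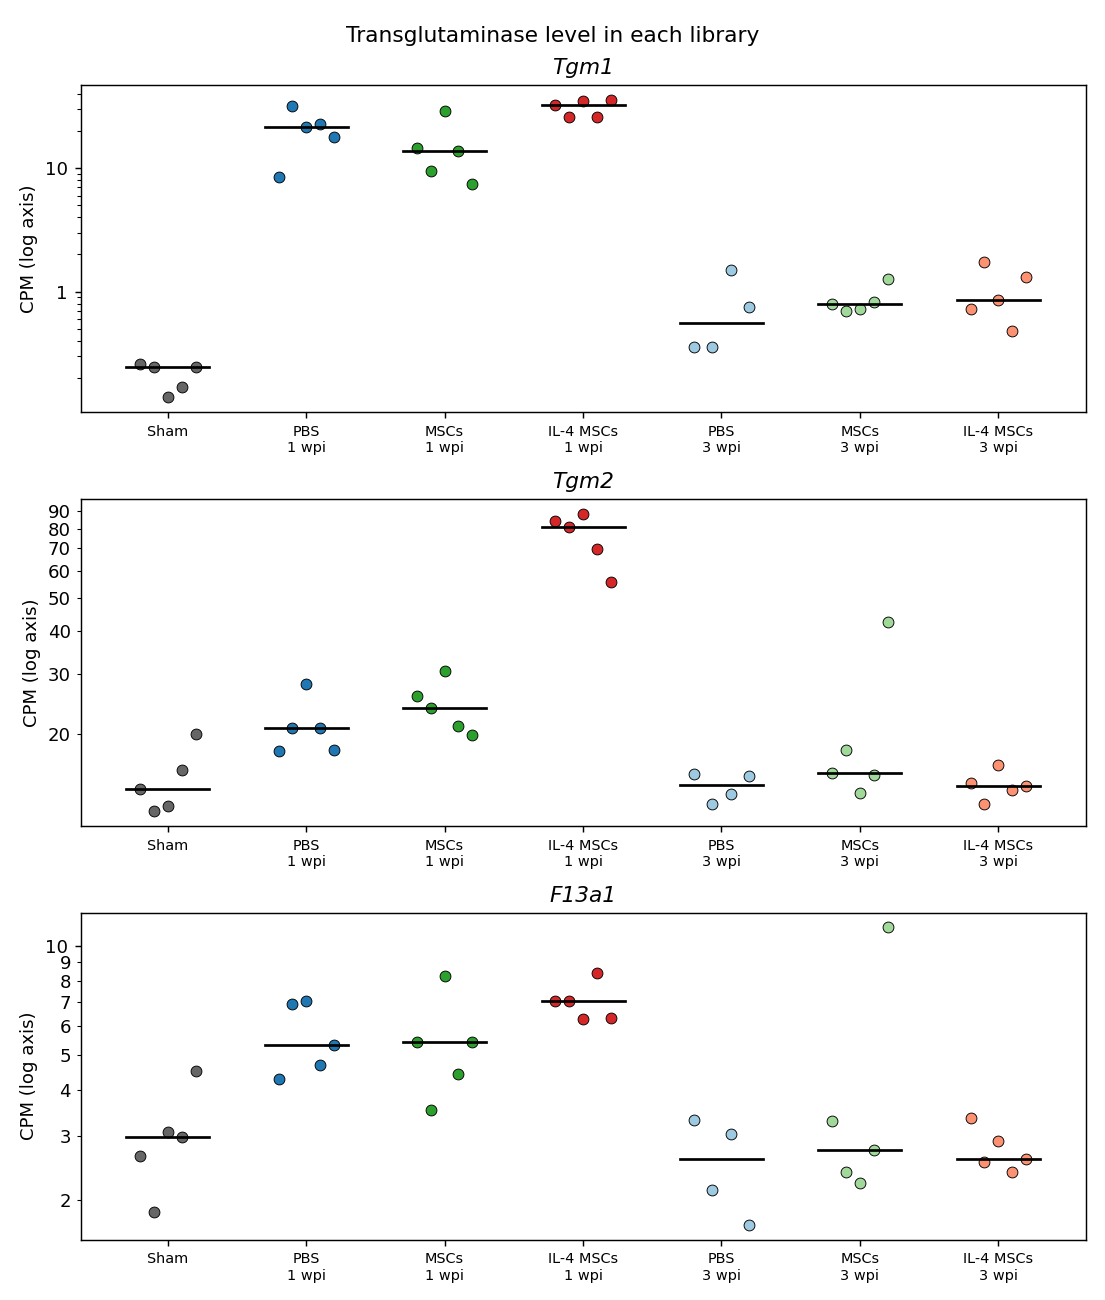
Level of Tgm1, Tgm2 and F13a1 in each library (CPM, log axis), with 1 point per mouse and a line at the median of each of the 7 groups. All Tgm1 points of injured mice lie above Sham, Tgm2 is highest in all 5 IL-4 MSC mice at 1 wpi, and 1 MSC mouse at 3 wpi stands apart for Tgm2 (42.5 CPM) and F13a1 (11.2 CPM).

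Markers of keratinocytes, the cells best known for Tgm1, stayed at a low level. Summed over 8 keratinocyte markers, the level ranged from 7.27 to 9.29 CPM in Sham and from 6.81 to 9.78 CPM in the injured groups at 1 wpi. None of the 5 markers tested was called higher with PBS than in Sham, against 8.73% of all genes. With only 5 markers, this count is not read as a result beside that share. Krt14, a keratin of basal keratinocytes, did not exceed 0.125 CPM in any of the 34 libraries, and its partner Krt5 did not exceed 0.488 CPM. Krt5 stood at 0 to 0.217 CPM in Sham and 0.0633 to 0.344 CPM with PBS at 1 wpi, ranges that overlapped. With IL-4 MSCs at 1 wpi Krt5 stood at 0 to 0.0621 CPM, under the limit of detection. It was called lower there than with PBS, as were 6.16% of all genes. Among genes of the cornified envelope, which hold the substrates of transglutaminase 1 and their processing enzymes, 4 of 12 tested rose with PBS over Sham and none fell, against 8.73% and 5.03% of all genes. Their median log2 fold change was 0.09, beside -0.01 for all genes. The 4 were Sprr1a, Cdsn, Klk6 and Ppl, of which Sprr1a is also known from injured neurons and Klk6 from oligodendrocytes. Sprr1a was at or under the limit of detection in Sham (0 to 0.0650 CPM) and stood between 0.172 and 0.633 CPM with PBS at 1 wpi. Cdsn, the gene of corneodesmosin, rose by 1.02 (SE 0.18) on the log2 scale with an adjusted p of 0.000103 in edgeR's test. Loricrin (Lor), a major substrate in skin, fell with IL-4 MSCs against PBS at 1 wpi by 0.35 on the log2 scale (adjusted p = 0.00315, edgeR). In that comparison 3 of 12 rose, Sprr1a, Klk6 and Cdsn, and 1 fell, against 11.2% and 6.16% of all genes, and the median of the list was -0.04.

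Neurons can switch on a set of injury response genes, and 3 of 12 tested rose with PBS over Sham at 1 wpi while 1 fell, against 8.73% and 5.03% of all genes. Atf3, a stress transcription factor of injured neurons and other cells, rose from 0.601 ± 0.319 CPM in Sham to 2.73 ± 0.733 CPM with PBS (mean ± SD, n = 5 each) and to 5.59 ± 1.22 CPM with IL-4 MSCs. Tubb6, a tubulin, rose by 0.79 (SE 0.13) with PBS over Sham on the log2 scale. Npy, a neuropeptide, fell by 0.39 on that scale (adjusted p = 0.0269, edgeR), and the median of the list was 0.05.

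The treatments were compared for Tgm1 with a test, although its choice on the contrast with Sham used the same injured libraries. Tgm1 was highest in IL-4 MSCs at 1 wpi, so these tests are not independent of that choice. Tgm1 was higher with IL-4 MSCs than with MSCs at 1 wpi by 1.05 log2 units (SE 0.28, adjusted p = 0.0141, edgeR), with 7.66% of all genes called higher and 1.03% lower. The ranges overlapped through MSC replicate 3, and the adjusted p was 0.0519 without MSC replicate 2 and 0.0586 without MSC replicate 5. Against PBS the log2 fold change was 0.57 (SE 0.28, 95% interval from -0.0010 to 1.15, adjusted p = 0.167, edgeR), which did not pass the test. MSCs against PBS gave -0.47 (SE 0.28, adjusted p = 0.996, edgeR), in a comparison with 0.123% of genes called higher. At 3 wpi no treatment comparison passed for Tgm1, with log2 differences of 0.41, 0.24 and 0.17 for IL-4 MSCs minus PBS, IL-4 MSCs minus MSCs and MSCs minus PBS.

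Tgm2 behaved differently: it was well expressed in Sham and rose most with IL-4 MSCs at 1 wpi. In Sham it stood at 13.8, 11.9, 12.3, 15.7 and 20.1 CPM. At 1 wpi it stood at 17.8, 20.8, 28.1, 20.8 and 17.9 CPM with PBS. With MSCs it stood at 25.9, 23.8, 30.7, 21.1 and 19.8 CPM. These 3 groups formed a chain of overlapping ranges. With IL-4 MSCs the levels were 84.0, 80.7, 88.4, 69.8 and 55.8 CPM, and the lowest of these was above every other library of the study. The log2 fold change of IL-4 MSCs was 1.81 (SE 0.21, adjusted p = 9.93e-08, edgeR) over PBS and 1.62 (SE 0.21, adjusted p = 9.38e-07, edgeR) over MSCs, or 3.50-fold and 3.07-fold.

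Against Sham, Tgm2 rose with IL-4 MSCs at 1 wpi by 2.29 log2 units (SE 0.21, adjusted p = 2.67e-10, edgeR). It rose with MSCs by 0.67 (SE 0.21, adjusted p = 0.0264, edgeR), a call that was lost with the Sham mice of the same week alone (adjusted p = 0.0885) and without any 1 of 5 libraries, MSC replicates 1 and 3 and Sham replicates 1, 2 and 3 (adjusted p between 0.0525 and 0.0921). With PBS the difference of 0.48 (SE 0.21, adjusted p = 0.149, edgeR) did not pass. The difference between MSCs and PBS was 0.19 (SE 0.21, 95% interval from -0.24 to 0.62).

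No rise of Tgm2 with IL-4 MSCs was detected at 3 wpi. The levels were 15.2, 12.5, 13.3 and 15.0 CPM with PBS and 14.4, 12.5, 16.2, 13.7 and 14.1 CPM with IL-4 MSCs, all within the Sham range. With MSCs 4 mice stood at 15.4, 17.9, 13.4 and 15.1 CPM, and replicate 5 at 42.5 CPM. From 1 to 3 wpi Tgm2 fell with IL-4 MSCs by 2.36 on the log2 scale (SE 0.22, adjusted p = 3.08e-10, edgeR), in a comparison with 16.6% of all genes called lower. With PBS the change of -0.57 (SE 0.23, adjusted p = 0.174) did not pass, with 4.90% of genes called lower. With MSCs the change was -0.18 (SE 0.21, adjusted p = 0.727), with 4.93% of genes called lower, and -0.62 without replicate 5 (adjusted p = 0.00729, edgeR in each case). The difference between weeks was itself tested for the effect of IL-4 MSCs: the log2 fold change over PBS was larger at 1 wpi by 1.78 (SE 0.31, adjusted p = 0.000430, edgeR) and that over MSCs by 2.17 (SE 0.30, adjusted p = 1.05e-05, edgeR), with 3.93% and 5.96% of all genes called in this direction.

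F13a1 was low in Sham, and among its differences from Sham only that of IL-4 MSCs at 1 wpi passed the test. In Sham it stood at 2.63, 1.84, 3.06, 2.98 and 4.52 CPM. At 1 wpi it stood at 4.31, 6.90, 7.07, 4.71 and 5.33 CPM with PBS. With MSCs it stood at 5.44, 3.52, 8.26, 4.45 and 5.45 CPM. The lowest mice of these groups fell within the Sham range. With IL-4 MSCs it stood at 7.04, 7.04, 6.28, 8.41 and 6.32 CPM, above all Sham mice and overlapping both other treatments. F13a1 rose over Sham with IL-4 MSCs by 1.15 log2 units (SE 0.31, adjusted p = 0.00394, edgeR). With PBS the difference was 0.88 (SE 0.31, adjusted p = 0.0599, edgeR) and with MSCs 0.80 (SE 0.31, adjusted p = 0.0755, edgeR), and both passed when Sham replicate 5 was left out (adjusted p = 0.0337 and 0.0388). DESeq2 called the difference with PBS (adjusted p = 0.0356).

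No difference in F13a1 between treatments passed the test. At 1 wpi IL-4 MSCs exceeded PBS by 0.27 on the log2 scale (SE 0.30, 95% interval from -0.35 to 0.89, adjusted p = 0.614, edgeR) and MSCs by 0.34 (SE 0.30, adjusted p = 0.594, edgeR). MSCs minus PBS gave -0.07 (SE 0.30). The difference of the effect over PBS between weeks was 0.16 (SE 0.46, adjusted p = 0.914, edgeR). Where Tgm2 separated the IL-4 MSC mice from all others, 4 of the 5 values of F13a1 in these mice lay within the range of the other injured mice at 1 wpi.

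At 3 wpi F13a1 stood at 3.31, 2.12, 3.04 and 1.70 CPM with PBS and at 3.36, 2.54, 2.91, 2.39 and 2.59 CPM with IL-4 MSCs. With MSCs it stood at 3.29, 2.39, 2.22 and 2.75 CPM in 4 mice and at 11.2 CPM in replicate 5. The other mice were near Sham and only this library was far above it. From 1 to 3 wpi F13a1 fell with IL-4 MSCs by 1.28 on the log2 scale (SE 0.31, adjusted p = 0.00177, edgeR). It fell with PBS by 1.12 (SE 0.34, adjusted p = 0.0457, edgeR), a call lost when any 1 of 8 of the 9 libraries was left out (adjusted p up to 0.154). With MSCs the change was -0.28 (SE 0.31, adjusted p = 0.713), and -1.004 without replicate 5 (adjusted p = 0.00338, edgeR).

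Against Sham at 3 wpi neither Tgm2 nor F13a1 was called in any treatment by edgeR or by DESeq2, and of these 6 tests 1, Tgm2 with MSCs, had an unadjusted p under 0.05. All genes called higher there made up 0.0233% for PBS, 1.11% for MSCs and 2.76% for IL-4 MSCs. Between treatments at 3 wpi none of the 3 genes was called by either tool, in comparisons with 2.17% of genes called higher for IL-4 MSCs over PBS, 2.29% over MSCs and 0.0817% for MSCs over PBS. Unadjusted p-values under 0.05 were found for 2 genes, Tgm2 and F13a1, in IL-4 MSCs against MSCs and for the same 2 in MSCs against PBS, with MSCs higher. Replicate 5 of MSCs enters both of these comparisons.

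**Figure D2:**
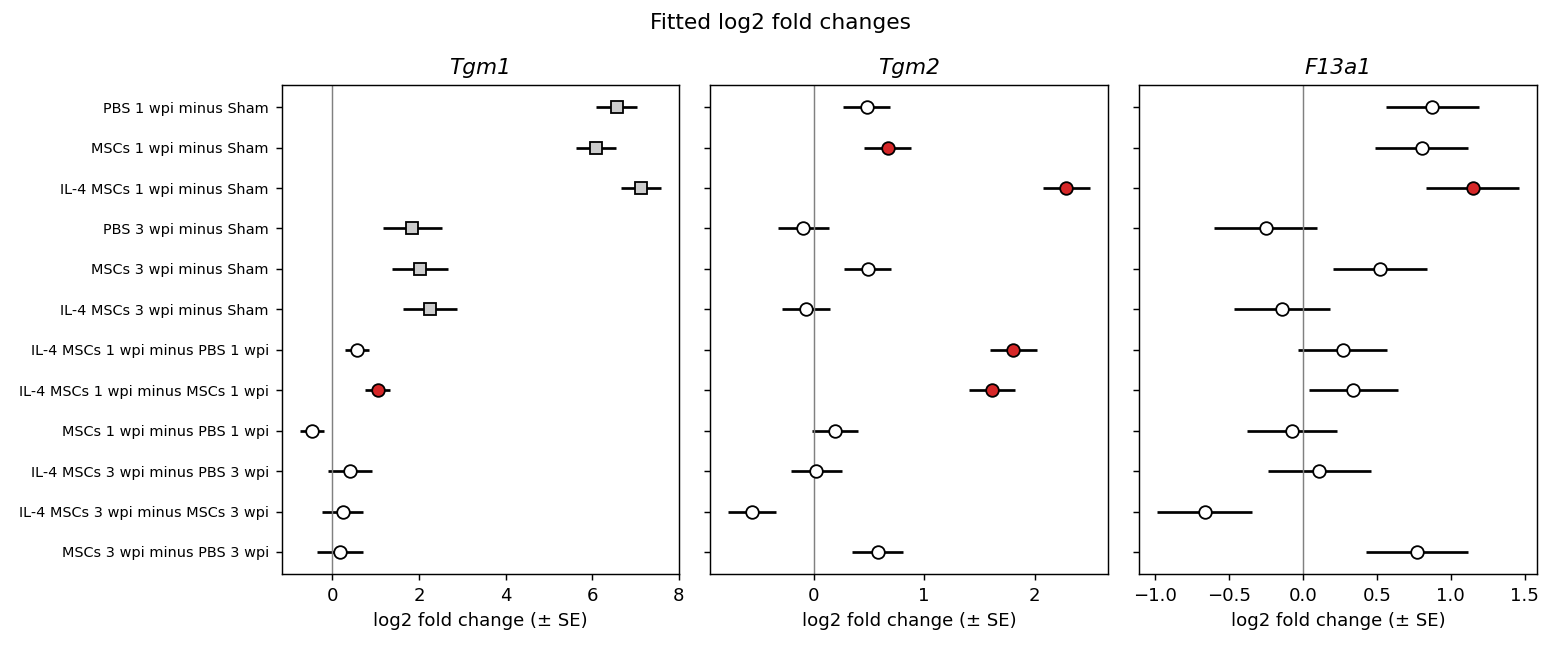
Fitted log2 fold changes of the 3 genes against Sham and between treatments (bars, ± SE). Red circles passed an adjusted p-value of 0.05, white circles did not, and grey squares were not tested because Tgm1 was chosen on that contrast. IL-4 MSCs exceed PBS and MSCs at 1 wpi for Tgm2 (1.81 and 1.62) and exceed MSCs for Tgm1 (1.05). The Tgm1 tests between treatments are not independent of that choice, and its call was lost without MSC replicate 2 or replicate 5 at 1 wpi.

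In MSCs at 3 wpi, replicate 5 was also highest for 9 of 10 border-associated macrophage markers and 7 of 8 monocyte markers. Summed, the former stood at 76.2 CPM beside 36.4 to 44.2 CPM in the other 4 mice. Microglia markers summed to 305 CPM in this mouse, within the 274 to 307 CPM of the others. Fibroblast and meningeal markers were at 214 CPM beside 143 to 168 CPM, with 6 of 8 highest in this mouse, and endothelial markers at 299 CPM beside 235 to 239 CPM, with 7 of 8 highest. The part of these cells in the Tgm2 and F13a1 values of this mouse was not tested.

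Markers of several other cell types were also higher with IL-4 MSCs than with PBS at 1 wpi. The 10 border-associated macrophage markers, which include Mrc1, the mannose receptor, summed to 31.4 to 51.0 CPM in Sham, 58.7 to 82.4 CPM with PBS at 1 wpi, 63.7 to 97.6 CPM with MSCs and 233 to 285 CPM with IL-4 MSCs. None of the 10 was at 0 in all libraries of a group, and 8 of 10 were called higher with IL-4 MSCs than with PBS, a comparison in which 11.2% of all genes were called higher. Of 8 monocyte markers all 8 were called higher, and without Fn1, which is also in the Tgm2 list below, the other 7 summed to 33.8 to 43.0 CPM with PBS and 162 to 271 CPM with IL-4 MSCs. Most of that sum was Chil3, a chitinase-like protein of alternatively activated macrophages, at 0.505 to 1.04 CPM with PBS and 98.8 to 205 CPM with IL-4 MSCs. Without Chil3 the remaining 6 summed to 33.2 to 42.3 CPM and 62.9 to 73.4 CPM. Microglia markers summed to 356 to 474 CPM with PBS and 377 to 475 CPM with IL-4 MSCs. Platelet markers summed to 4.60 to 6.64 CPM with PBS and 6.31 to 8.59 CPM with IL-4 MSCs, with 1 of 5 tested called higher. That gene, Pf4, is also among the border-associated macrophage markers. It stood at 0.632 to 1.62 CPM with PBS and 1.78 to 3.65 CPM with IL-4 MSCs. Endothelial markers summed to 231 to 251 CPM with PBS and 308 to 386 CPM with IL-4 MSCs, and 7 of 8 were called higher. Fibroblast and meningeal markers summed to 179 to 259 CPM with PBS and 354 to 462 CPM with IL-4 MSCs, with 3 of 8 called higher, and markers of mesenchymal stromal cells to 569 to 669 CPM and 688 to 736 CPM, with 8 of 12 called higher. With MSCs at 1 wpi the fibroblast and meningeal sum was 272 to 708 CPM, a range that held that of IL-4 MSCs. The 5 hemoglobin and heme genes summed to 3.67 to 30.8 CPM with PBS and 73.6 to 266 CPM with IL-4 MSCs, ranges that did not overlap. Their members differed in direction: Hba-a2 was higher with IL-4 MSCs than with PBS by 4.796 log2 units (SE 0.66), Hba-a1 fell by 2.20 (SE 0.77), the other 3 were not called, and the median was -1.09. Hba-a1 and Hba-a2 are near-identical copies between which reads can be divided, so their separate values are uncertain. A change in the number of cells of a type and a change in RNA per cell cannot be told apart in bulk tissue. The part of these cells in the levels of the 3 genes was not tested. The transplanted cells are of mouse origin as well: Hoxa9, Hoxa10 and Hoxc10, which mark cells from the limbs and trunk and not forebrain, summed to 0.0543 to 1.44 CPM in MSCs and 0.563 to 1.52 CPM in IL-4 MSCs at 1 wpi, and were at 0 in all other groups.

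Over all 34 libraries Tgm2 followed Mrc1 with a Pearson correlation of log2 CPM of 0.94 and F13a1 with 0.66. After the mean of each group was subtracted the order turned, with 0.72 for Tgm2 and 0.90 for F13a1, and without replicate 5 of MSCs at 3 wpi these were 0.41 and 0.79. The points share library preparation and depth, and the values describe these libraries only. The ratio of F13a1 to Mrc1 CPM was between 0.302 and 0.765 in the 29 libraries outside IL-4 MSCs at 1 wpi and between 0.0669 and 0.0833 in those 5. Mrc1 stood at 94.3 ± 10.1 CPM with IL-4 MSCs and 9.53 ± 0.571 CPM with PBS at 1 wpi (mean ± SD, n = 5 each), while no difference in F13a1 between them passed the test above.

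**Figure D3:**
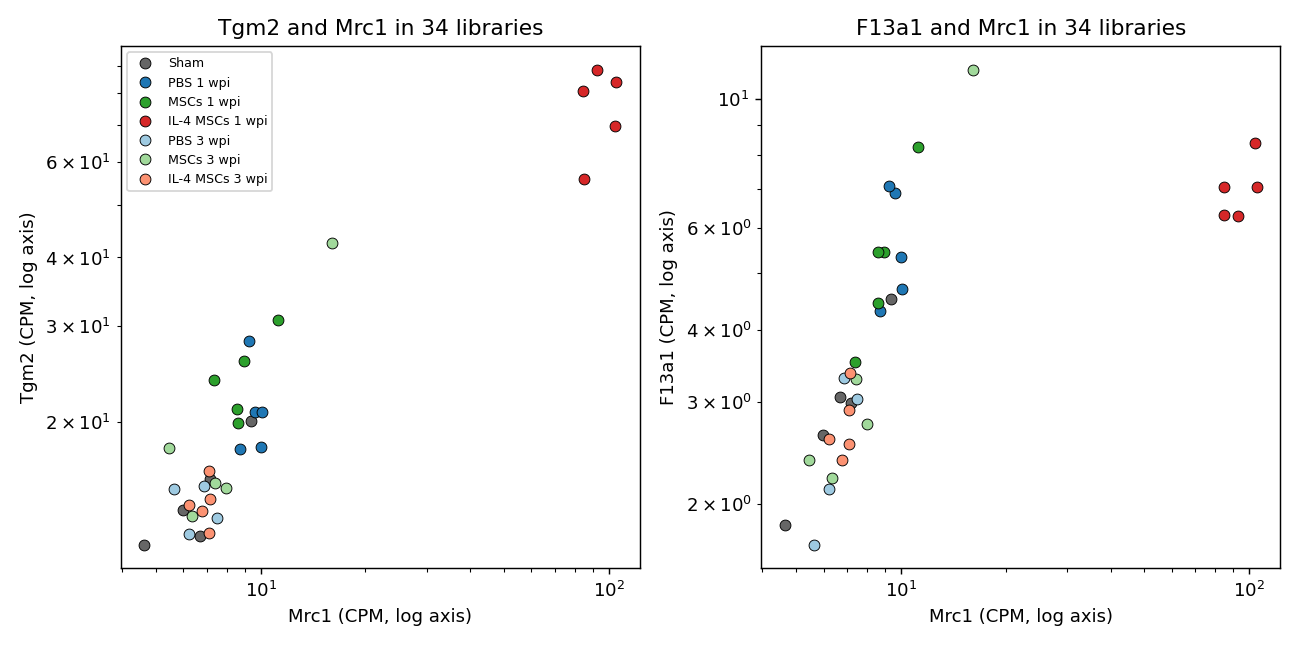
Tgm2 and F13a1 against Mrc1 in 34 libraries (CPM, log axes, 1 point per mouse, coloured by group). The 5 IL-4 MSC mice at 1 wpi are to the right in both panels, at 84.5 to 105 CPM of Mrc1, above all other mice for Tgm2, while for F13a1 4 of the 5 lie within the range of the other injured mice at 1 wpi.

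The genes whose log2 CPM was most like each member over the 34 libraries were named by Pearson correlation. For Tgm1 they were Vim (0.976), Tlr13 (0.971), Uhrf1 (0.970), Dhrs1 (0.960) and Hspb6 (0.959). Vim encodes vimentin, the intermediate filament of reactive astrocytes and many other cells, and its correlation with Tgm1 was 0.80 after group means were subtracted. For Tgm2 they were Pirb (0.965), Il4ra (0.964), Ms4a6d (0.964), Retnlg (0.963) and Pecam1 (0.961), of which Il4ra is the receptor chain for IL-4. For F13a1 they were Ifitm1 (0.884), Cp (0.876), Cd14 (0.875), Igfbp3 (0.868) and Nid1 (0.867), of which Cd14 is a monocyte co-receptor for bacterial products. No gene was on more than 1 of these lists. Between members the correlation was 0.71 for Tgm1 and Tgm2, 0.74 for Tgm1 and F13a1 and 0.78 for Tgm2 and F13a1, and 0.29, 0.32 and 0.77 after group means were subtracted. The last value was 0.51 without replicate 5 of MSCs at 3 wpi.

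The 7 genes listed beside the members, the transglutaminases Tgm3, Tgm4, Tgm5, Tgm6 and Tgm7, Epb42 (the red cell membrane protein 4.2, a family member with no enzyme activity) and F13b (the carrier subunit of factor XIII, unrelated in sequence), were low. In TPM, which also divides by transcript length, the median level over 34 libraries was 10.6 for Tgm2, 1.86 for F13a1, 1.85 for Tgm3, 1.48 for Tgm1, 0.664 for Tgm4, 0.487 for Tgm7 and 0.389 for Epb42. Tgm5 was at or under 3 counts in 33 libraries and F13b in all 34. Of the 7, 4 passed the filter on low counts, and none of the 4 was called in the 15 comparisons. Of all genes, 0.0233% to 18.4% were called higher against Sham or between treatments, and 4.90% to 16.6% lower between weeks. With only 4 genes tested, the absence of calls is not read as a result beside these shares. In Sham, Tgm1 was between 0.112 and 0.228 TPM, and in IL-4 MSCs at 1 wpi Tgm1 reached 22.9 to 38.7 TPM and Tgm2 32.9 to 51.3 TPM.

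**Figure D4:**
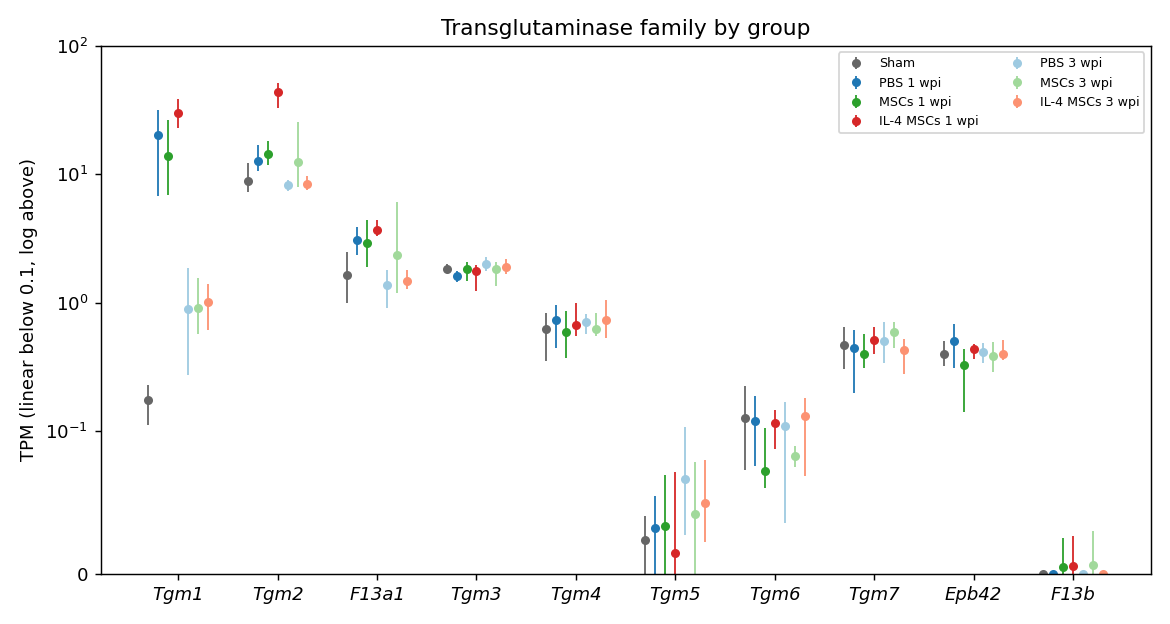
Level of the 3 members and the 7 genes listed beside them by group (TPM, linear below 0.1 and log above), with the mean as a point and the lowest and highest library as the bar. Tgm1 is lowest in Sham and highest in the 1 wpi groups, Tgm2 stands apart in IL-4 MSCs at 1 wpi, and Tgm3 stays between 1.23 and 2.27 TPM in all 34 libraries.

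Partners of factor XIII act in clotting and clot removal. Of 22 listed genes 16 passed the filter, among them none of the 3 fibrinogen chains. With PBS over Sham at 1 wpi 7 of 16 rose and none fell, against 8.73% and 5.03% of all genes, with a median log2 fold change of 0.45 beside -0.01 for all genes. Thbs1, thrombospondin 1, rose by 1.95 (SE 0.42). With IL-4 MSCs over PBS 6 of 16 rose and none fell, against 11.2% and 6.16% of all genes, with a median of 0.46. The 6 were F7, F10, Plaur, Plau, Vwf and Procr. F7, coagulation factor VII, stood at 0.127 to 0.638 CPM with PBS and 5.22 to 10.1 CPM with IL-4 MSCs, 4.54 log2 units higher (SE 0.38, adjusted p = 1.34e-10, edgeR). F10, coagulation factor X, rose by 2.19 (SE 0.28), Plaur, the receptor of urokinase, by 1.53 (SE 0.27), and Plau, urokinase itself, by 1.08 (SE 0.13). At 3 wpi none of the 16 was called between IL-4 MSCs and PBS by edgeR, in a comparison with 2.17% of all genes called higher. Beside so small a share, the absence of calls is not read as a result about these genes.

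Partners of tissue transglutaminase include fibronectin, integrins, annexins and TGF-β1, and were listed together with the lysyl oxidases, which cross-link matrix by another chemistry. With PBS over Sham 13 of 20 rose and 1 fell, against 8.73% and 5.03% of all genes, with a median log2 fold change of 0.40. With IL-4 MSCs over PBS 13 of 20 rose and 1, Mfge8, fell, against 11.2% and 6.16% of all genes, with a median of 0.53. Lox, lysyl oxidase, stood at 2.83 ± 1.97 CPM with PBS and 27.6 ± 7.57 CPM with IL-4 MSCs, 3.26 log2 units higher (SE 0.28, adjusted p = 3.89e-10, edgeR). Loxl4 rose by 2.50 (SE 0.27), Anxa1 by 1.46 (SE 0.22) and Fn1, fibronectin, by 1.42 (SE 0.17). Integrin β3 (Itgb3) rose by 1.04 (SE 0.09). At 3 wpi 2 of the 20 were higher with IL-4 MSCs than with PBS, against 2.17% of all genes.

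Retinoic acid is a classical inducer of Tgm2. Of 18 genes of its pathway, 1 rose and 1 fell with PBS over Sham, against 8.73% and 5.03% of all genes, with a median log2 fold change of 0.01. With IL-4 MSCs over PBS 4 rose and none fell, against 11.2% and 6.16% of all genes, with a median of 0.19. Among them, Dhrs3 rose by 0.99 (SE 0.07), Aldh1a3, which makes retinoic acid, by 0.55 (SE 0.15) and the receptor Rarg by 0.55 (SE 0.07).

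**Figure D5:**
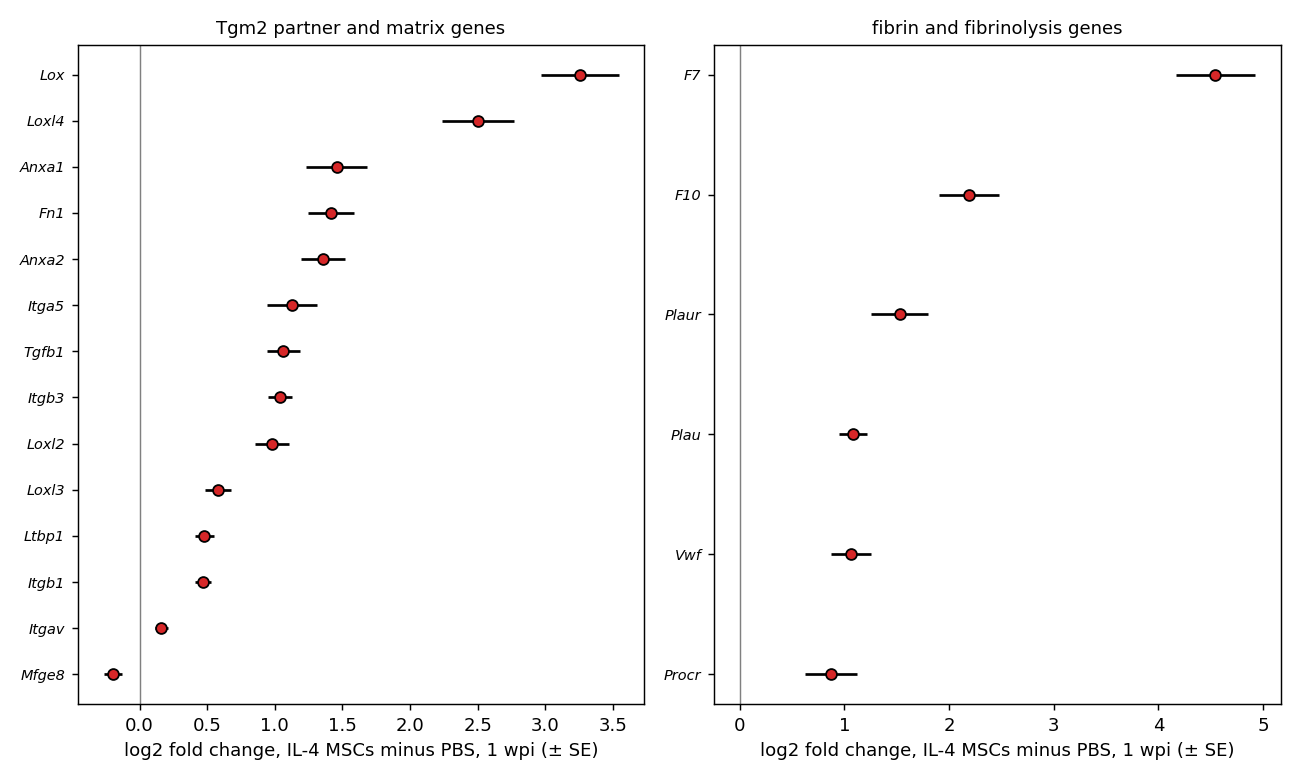
Log2 fold changes of IL-4 MSCs minus PBS at 1 wpi (± SE) for the partners of Tgm2 and the fibrin genes that passed an adjusted p-value of 0.05; genes that did not pass are not drawn. They are 14 of 20 tested on the left, led by Lox (3.26), and 6 of 16 on the right, led by F7 (4.54).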

How the data were processed

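Reads (50 bp, paired ends) had been trimmed with cutadapt 2.4 and assigned with kallisto 0.46 to protein-coding GENCODE transcripts, and the authors deposited estimated counts and TPM per gene, TPM being scaled for transcript length and to a fixed total per library. Columns of fold changes and p-values from the authors' comparisons (sleuth) were not used. Estimated counts were rounded and compared with edgeR 4.0.16 (R 4.3.3): TMM normalization, a filter on low counts that kept 17131 of 21203 genes, and 1 quasi-likelihood fit of 34 libraries in 7 groups with no covariate. All tests were two-sided, with Benjamini-Hochberg adjustment over all tested genes and a threshold of 0.05. The SE of a log2 fold change was taken from the test statistic, and 95% intervals used 27 residual degrees of freedom. The CPM levels given were not TMM-scaled. The log2 CPM used for correlations were TMM-scaled, with a prior count of 2 added. Library totals were 29838423 to 41554322 estimated counts, and detection limits cover counting error only. Levels of the family members were compared between genes in TPM, while the ratio of F13a1 to Mrc1 and the summed marker levels used CPM. The test was checked on simulated data. Each of 66 pairs of mice within a group differed by more than counting noise. Positions are GRCm38 (GENCODE vM21), and upstream sequences are RefSeq's, found for 2 of the 3 members, with no window for Tgm2. The titles also hold a number whose meaning is not given: each injured group has a number of its own, which cannot be told apart from the group, and the Sham mice have a pair of numbers, split by week.

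The members, gene lists and tests were chosen with earlier results of these data known. Named genes were the members, the rest of the family, up to 4 genes per pathway list with the largest absolute log2 fold change of IL-4 MSCs against PBS at 1 wpi among those called, and the 5 genes most correlated with each member. Thbs1, Itgb3, Ppl, Vwf, Procr, Mfge8, Krt14, Krt5, Chil3, Pf4, Hba-a1, Hba-a2 and Mrc1 were named after their values were seen. Some genes of the lists are counted but not reported by name here. Alternatives were DESeq2 1.42.0 and its size factors, library size alone, no filter, only the groups compared, Sham mice of the same week, replicate number as a block, a striatal marker score as covariate, a threshold of 0.01, and leaving out each library.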

Additional observations from a re-analysis of the deposited data

Results flagged for a closer look

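Replicate 5 of MSCs at 3 wpi was far from the other mice of its group for all 3 genes, with a level of 1.26 CPM for Tgm1, 42.5 CPM for Tgm2 and 11.2 CPM for F13a1. For Tgm1 it was within the ranges at 3 wpi of PBS (0.354 to 1.50 CPM) and IL-4 MSCs (0.483 to 1.73 CPM). The gap of replicate 5 to the next mouse of its group was 0.794, 0.846 and 0.881 of the range of the group. Of 21 sets of mice (3 genes in 7 groups) these were the only ones to pass this criterion, and they come from 1 library. The criterion was set to be passed by chance in about 5% of sets, a share that was not checked on CPM levels. For Tgm1 the level of replicate 5 rests on 44 counts, beside 23 to 25 in the other mice of its group. The effect of IL-4 MSCs on Tgm2 differed between weeks: it was larger at 1 wpi by a log2 fold change of 1.78 over PBS (SE 0.31, adjusted p = 0.000430, edgeR) and of 2.17 over MSCs (SE 0.30, adjusted p = 1.05e-05, edgeR). Both IL-4 MSC comparisons use the same IL-4 MSC mice.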

How the results depend on the processing

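The call of Tgm2 for IL-4 MSCs at 1 wpi over Sham, PBS and MSCs, and its fall to 3 wpi, held under every alternative run, as did that of F13a1 for IL-4 MSCs over Sham and between weeks, and no scaling alternative changed a call or a direction of a member. The median of all genes moved by less than 0.1 on the log2 scale under each scaling. The cause was not tested for the changes that follow, all of them log2 differences. F13a1 with PBS over Sham passed in DESeq2 (0.87) and with only the groups compared (0.87), where F13a1 with MSCs over Sham (0.82) and Tgm2 from 1 to 3 wpi with PBS (-0.57) passed too. F13a1 from 1 to 3 wpi with PBS no longer passed with no filter (-1.12), nor did Tgm2 with MSCs over Sham with Sham mice of the same week (0.73). With the striatal score, F13a1 turned in sign for IL-4 MSCs over Sham at 3 wpi (0.082) and MSCs over PBS at 1 wpi (0.024), neither called before or after. For mice with the same replicate number the deviations from group means had a median r of 0.012 (99 pairs, from -0.46 to 0.40, 24 of them over 0.1). For mice with different numbers the median was 0.0012. The samples were not treated as paired, but a median over such widely spread pairs cannot show that the numbers hold no pairing. With the replicate block F13a1 with PBS over Sham passed (0.93) and Tgm2 for IL-4 MSCs over PBS at 3 wpi turned in sign (-0.020). At a threshold of 0.01 the members called were 0 for MSCs over Sham at 1 wpi, 1 for IL-4 MSCs over MSCs at 1 wpi and 0 between weeks with PBS. The share of all genes called at 0.01 is not given here, so these counts are not read as a result about the members.

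Leaving out 1 library changed a call or a direction in the following, given as ranges, except for the Tgm1 differences without test. Those kept their direction and moved by more than 0.604, the spread of log2 CPM of Tgm1 within groups. For Tgm1 they were 0.88 to 1.46 for IL-4 MSCs over MSCs at 1 wpi, -0.50 to 0.46 for the difference between weeks of IL-4 MSCs over PBS, -0.026 to 0.42 for IL-4 MSCs over MSCs and -0.073 to 0.84 for MSCs over PBS at 3 wpi, and, without test, -5.38 to -4.47 between weeks with PBS and 1.18 to 2.09 for PBS over Sham at 3 wpi. For Tgm2 they were 0.57 to 0.80 for MSCs over Sham at 1 wpi, -0.15 to 0.055 for IL-4 MSCs and -0.17 to 0.035 for PBS over Sham at 3 wpi, -0.033 to 0.067 for IL-4 MSCs over PBS at 3 wpi, and -0.62 to -0.060 between weeks with MSCs. For F13a1 they were 0.74 to 1.06 for PBS and 0.60 to 0.99 for MSCs over Sham at 1 wpi, -0.28 to 0.041 for IL-4 MSCs and -0.20 to 0.71 for MSCs over Sham at 3 wpi, -0.27 to 0.055 for MSCs over PBS at 1 wpi, -0.034 to 0.26 for IL-4 MSCs over PBS and -0.83 to 0.052 over MSCs at 3 wpi, and -1.27 to -0.98 between weeks with PBS and -1.004 to -0.083 with MSCs. Tgm1 in Sham rests on 5 to 8 counts per library, which limits the precision of its fold changes over Sham.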
